A study of Drosophila melanogaster with 120 samples.

Results

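The UDP-glycosyltransferase (UGT) genes of Drosophila melanogaster were followed in adult males and females of 15 hemiclone lines. The members are the probe sets annotated to a single gene whose current symbol begins with Ugt and a digit. Of the 18769 probe sets tested, 35 met this rule, and each stood for a different gene. All flies of a hemiclone line share 1 haplotype, sampled from the outbred population LHM and complete but for the fourth chromosome, while the other haplotype of each fly is a random draw from LHM. Males were sons of double-X females [C(1)DX, y, f] that carried LHM autosomes. Every sample was a pool of 6 whole flies, so a line mean describes 1 haplotype over a mixed second genome and over all tissues together. Flies of both sexes were frozen on Day 14, as 4-day-old adults that had spent 24 h with LHM tester flies of the opposite sex and a further 20 h without them. With 4 samples for each sex and line there were 60 male arrays and 60 female arrays, 120 in all. The lines had been picked for high male and low female fitness, for the reverse, or for average fitness in both sexes, but the sample labels do not say which line was of which kind, and lines were therefore compared only as lines.

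UGTs are membrane enzymes of the endoplasmic reticulum that join a sugar, in insects mostly glucose taken from UDP-glucose, to small fat-soluble molecules. The sugar makes the molecule more soluble in water and easier to excrete. Substrates in insects include plant toxins and insecticides, pigments, hormones and odorants, and the enzymes are found in gut, fat body, Malpighian tubules and antennae. They work beside the cytochrome P450s, which oxidise such compounds, and the glutathione S-transferases, which couple them to glutathione. Many UGT genes lie in tandem runs that arose by duplication. Of the members, Ugt35C1, formerly Ugt86Dd, has been linked to nicotine resistance in larvae, Ugt35B1, formerly Ugt35b, is known from the antenna, and Ugt36A1 is the gene Dorothy.

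All values are RMA values, which are log2 intensities, so that a difference of 1 is a 2-fold ratio. The probe sets differ in how brightly their probes respond, and therefore levels were compared between samples of 1 probe set and not between probe sets. A mean under 5 was taken as dim. The mean was dim in both sexes for 11 members, in 1 sex for 3 members (Ugt50B3, Ugt36F1 and Ugt37C2), and in neither sex for 21 members. The probe sets of Ugt50B3, Ugt36E1 and Ugt37D1 are of a kind that can match more than 1 transcript.

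The 180 pairs of arrays of the same line and sex correlated at 0.988 to 0.997, and 107 of 120 arrays were most alike to another array of their own line and sex. The median of all probe sets lay between 6.28 and 6.45 on male arrays and between 5.69 and 5.82 on female arrays, so that the deposited values were not on a common median across the sexes. Sex labels were checked with the male seminal protein gene SP (13.42 to 14.05 on male arrays and 3.54 to 4.87 on female arrays) and the yolk protein gene Yp1 (3.70 to 9.84 on male arrays and 14.32 to 14.58 on female arrays). Single arrays stood apart within the family. Over the 24 brighter members, replicate 2 of P22 females lay 0.26 above its line mean on average (20 of 24 above) and replicate 4 of P26 males 0.22 below (2 of 24 above). Replicate 2 of P22 females exceeded the other 3 arrays of its group for 22 of the 35 members, by 1.04 for Ugt49B1, 0.93 for Ugt49C1 and 0.85 for Ugt35B1 over their mean, and the P450 and glutathione S-transferase genes on it were also raised, by 0.21 on average each over their line means. Without it, and without replicate 4 of P26 males, 19 members were still higher in males and 13 in females. Replicate 4 lay below its line mean over these members in 14 of 15 male groups and in 12 of 15 female groups. The line terms were refitted with a replicate block and without each replicate number in turn.

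Most members differed between the sexes, as most probe sets on the array did. In a mixed model with random terms for the line and for its interaction with sex, 32 of the 35 members differed between the sexes at an adjusted p under 0.001, the threshold for a call unless another is named, as did 91.4% of all probe sets. Of these, 19 were higher in males (54.3%, against 30.5% of all probe sets) and 13 were higher in females (37.1%, against 60.9% of all probe sets). The direction was the same in all 15 lines for 28 members. The difference reached 1 or more in 8 members higher in males (19.5% of all probe sets did) and in 2 members higher in females (20.4% of all probe sets). Over the members the median of male minus female was 0.28, compared with 0.99 for the 85 cytochrome P450 probe sets, 0.39 for the 36 glutathione S-transferase probe sets and -0.27 for all probe sets. In whole flies a larger tissue and more RNA per cell cannot be told apart, and the sexes differ in the make-up of their tissues.

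**Figure D1:**
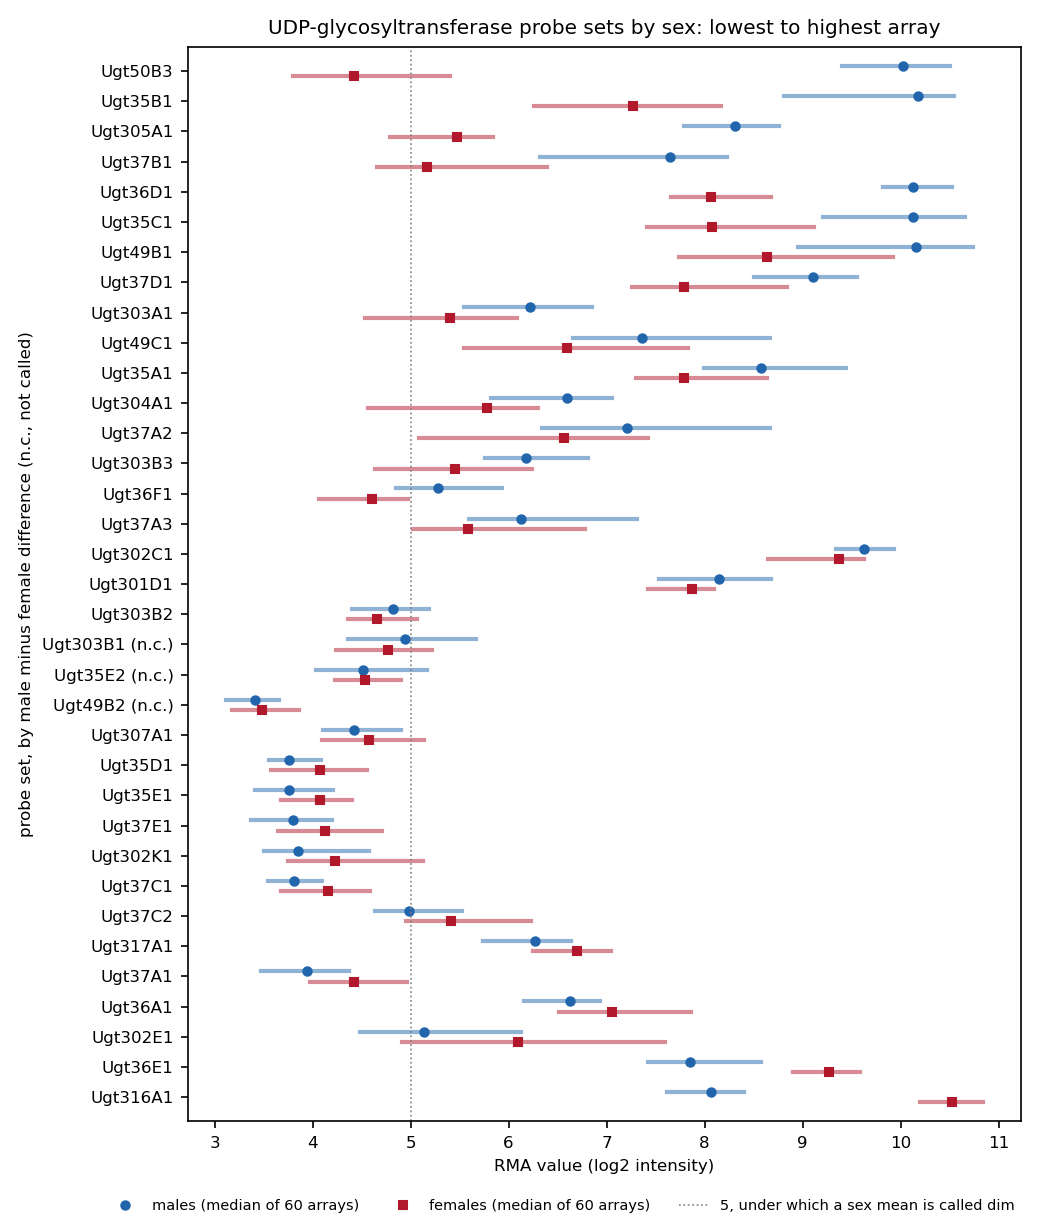
The 35 UGT probe sets, ordered by male minus female difference from the highest (top) to the lowest (bottom); the x axis is the RMA value in log2 units, bars run from the lowest to the highest of 60 arrays of males (upper, circles at the median) and of females (lower, squares at the median), and n.c. marks the 3 members without a sex call. The bars of Ugt50B3, Ugt35B1, Ugt305A1, Ugt36D1 and Ugt35C1 are apart with males above, and those of Ugt36E1 and Ugt316A1 are apart with females above.

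The widest difference was that of Ugt50B3. Its lowest, median and highest values were 9.40, 10.03 and 10.51 on male arrays, against 3.80, 4.42 and 5.40 on female arrays, so that every male array was far above every female array. Mean values were 10.02 ± 0.14 in males and 4.52 ± 0.32 in females (SD of line means, n = 15 each), which lay apart by 5.51 (SE 0.078, adjusted p = 2.31e-18, mixed-model F test), or 45.5-fold. The female mean was dim, so that this ratio rests on a female level near the bottom of the scale.

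Ugt35B1, the antennal gene, gave 8.81, 10.18 and 10.55 on the lowest, median and highest male array, against 6.26, 7.27 and 8.17 on female arrays. The means were 10.10 ± 0.37 in males and 7.19 ± 0.35 in females, and the difference was 2.91 (SE 0.080, adjusted p = 9.49e-15). Of the 11 probe sets of an antennal marker list, males had the higher level for 7 and females for 2 (30.5% and 60.9% of all probe sets). The median difference was 0.96, and the list averaged 6.82 to 7.20 in the male lines and 5.83 to 6.17 in the female lines. Within it the odorant-binding protein gene Obp83b averaged 10.29 in males and 7.94 in females, while the odorant co-receptor gene Orco averaged 5.78 in males and 5.63 in females and was not called. The part of antennal RNA in the difference of Ugt35B1 was not tested. Ugt305A1 reached 7.79, 8.31 and 8.76 in males, against 4.79, 5.47 and 5.84 in females, with a difference of 2.86 (SE 0.048, adjusted p = 1.74e-17). As for Ugt50B3, every male array of both genes was above every female array.

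The arrays of Ugt37B1 overlapped between the sexes despite a wide male excess. It gave 6.32, 7.65 and 8.23 on the lowest, median and highest male array, against 4.65, 5.17 and 6.40 on female arrays, with a difference of 2.35 (SE 0.080, adjusted p = 1.58e-13). Ugt36D1 was measured at 9.82, 10.12 and 10.52 in males, against 7.66, 8.06 and 8.68 in females (difference 2.05, SE 0.048, adjusted p = 1.38e-15). The nicotine-resistance gene Ugt35C1 was measured at 9.21, 10.13 and 10.66 in males, against 7.41, 8.08 and 9.12 in females (difference 1.98, SE 0.044, adjusted p = 7.04e-16). Its highest female array was replicate 2 of P22, and the highest of the other female arrays of that line was 8.64. Ugt49B1 (1.45) and Ugt37D1 (1.28), with overlapping arrays, were the other members with at least a 2-fold male excess, and the remaining 11 members higher in males differed by 0.16 to 0.88.

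The members higher in females were led by Ugt316A1. It was at 7.61, 8.07 and 8.41 on the lowest, median and highest male array, against 10.20, 10.53 and 10.84 on female arrays, the lowest of them replicate 2 of P22 (the other 3 arrays of that group gave 10.55 to 10.68). The means were 8.06 ± 0.13 in males and 10.54 ± 0.09 in females, and male minus female was -2.48 (SE 0.041, adjusted p = 1.42e-17). Ugt36E1 was at 7.42, 7.85 and 8.57 in males, against 8.90, 9.27 and 9.59 in females (difference -1.41, SE 0.044, adjusted p = 4.69e-14). Every female array of both genes was above every male array. Ugt302E1 was at 4.49, 5.14 and 6.12 in males, against 4.91, 6.10 and 7.59 in females, with overlapping arrays and a difference of -0.93 (SE 0.097, adjusted p = 2.02e-07). The next 3 in size were Ugt36A1 (-0.50, SE 0.046), Ugt37A1 (-0.48, SE 0.026) and Ugt317A1 (-0.43, SE 0.037), each lower in males in all 15 lines. Of the 13 members higher in females, 7 were dim in both sexes, compared with 1 of the 19 higher in males. Among the 24 members with a mean of 5 or more in at least 1 sex, 18 were higher in males (75%, against 41.6% of all probe sets of that brightness) and 6 in females (25%, against 51.8%). Counted by complete separation of the 120 arrays, 5 members had every male array above every female array (18.5% of all probe sets did), 2 had every female array above every male array (24.8% of all probe sets), and 28 overlapped.

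The count of members in each direction moved with the scaling of the arrays, because the medians of the sexes differ. Centring each array on its own median lowered every male minus female difference by 0.64 and left 9 members higher in males (25.7%, against 21.2% of all probe sets) and 19 in females (54.3%, against 73.6%). Centring on the ribosomal protein genes raised the differences by 0.67 and left 31 higher in males (88.6%, against 69% of all probe sets) and 2 in females (5.71%, against 22.6%). Under all 3 scalings Ugt50B3, Ugt35B1, Ugt305A1, Ugt37B1, Ugt36D1, Ugt35C1, Ugt49B1, Ugt37D1 and Ugt303A1 were called as higher in males, and Ugt36E1 and Ugt316A1 as higher in females. The direction of the other called members is relative to the deposited scale.

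On the deposited scale, both directions occurred within 3 of the 6 runs of neighbouring members. By the order of genes in RefSeq Release 6, 23 members fell into 6 runs with no more than 2 other genes between one member and the next, and 12 stood alone; 11 members lay on arm 2L, 5 on 2R, 2 on 3L and 17 on 3R. The longest run, of 10 genes on 3R, held Ugt35C1, Ugt302K1, Ugt302E1, Ugt302C1, Ugt35E1, Ugt35E2, Ugt35B1, Ugt35A1, Ugt304A1 and Ugt303A1. In it 6 genes were higher in males, 3 in females and 1 was not called, and the differences spanned -0.93 (Ugt302E1) to 2.91 (Ugt35B1). The run of Ugt36F1, Ugt36D1 and Ugt36E1 on 2L gave 0.73, 2.05 and -1.41. In the run of Ugt37C2, Ugt37E1 and Ugt37D1, also on 2L, the differences were -0.43, -0.33 and 1.28. The pair Ugt37A2 and Ugt37A3 (0.76 and 0.46) and the pair Ugt49B1 and Ugt49C1 (1.45 and 0.84) were higher in males. In the run of Ugt303B3, Ugt303B1 and Ugt303B2 on 3R the differences were 0.75, 0.14 (not called) and 0.16. With ribosomal protein centring Ugt37C2 (0.24), Ugt37E1 (0.35), Ugt302K1 (0.32) and Ugt35E1 (0.38) were higher in males. On that scale Ugt302E1 (-0.25) was not called, and Ugt36E1 (-0.74) stayed higher in females. With median centring Ugt37A2 (0.12), Ugt37A3 (-0.18) and Ugt49C1 (0.20) were not called.

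The second question was how far the measured value of each probe set differed between lines within a sex. No probe sequences were at hand, so the part of sequence differences under the probes in the line terms was not tested. A line term was called in males for 16 members (45.7%, against 27.3% of all probe sets) and in females for 13 members (37.1%, against 8.36% of all probe sets). Both terms were called for 8 members (22.9%, against 5.46%): Ugt49B1, Ugt35B1, Ugt35C1, Ugt35A1, Ugt49C1, Ugt37A3, Ugt37A2 and Ugt301D1. Another 8 members were called in males alone and 5 in females alone, and 14 had neither call. The percentages were higher in the other detoxification families, with 63.5% of P450 and 63.9% of glutathione S-transferase probe sets called in males and 41.2% and 44.4% of them called in females. Of the 11 members dim in both sexes 2 had a line term in males and 0 in females, and the counts were therefore repeated for probe sets with a mean of 5 or more in at least 1 sex. There 14 of 24 members had a line term in males (58.3%, against 37.6% of such probe sets) and 13 of 24 in females (54.2%, against 11.7%).

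**Figure D2:**
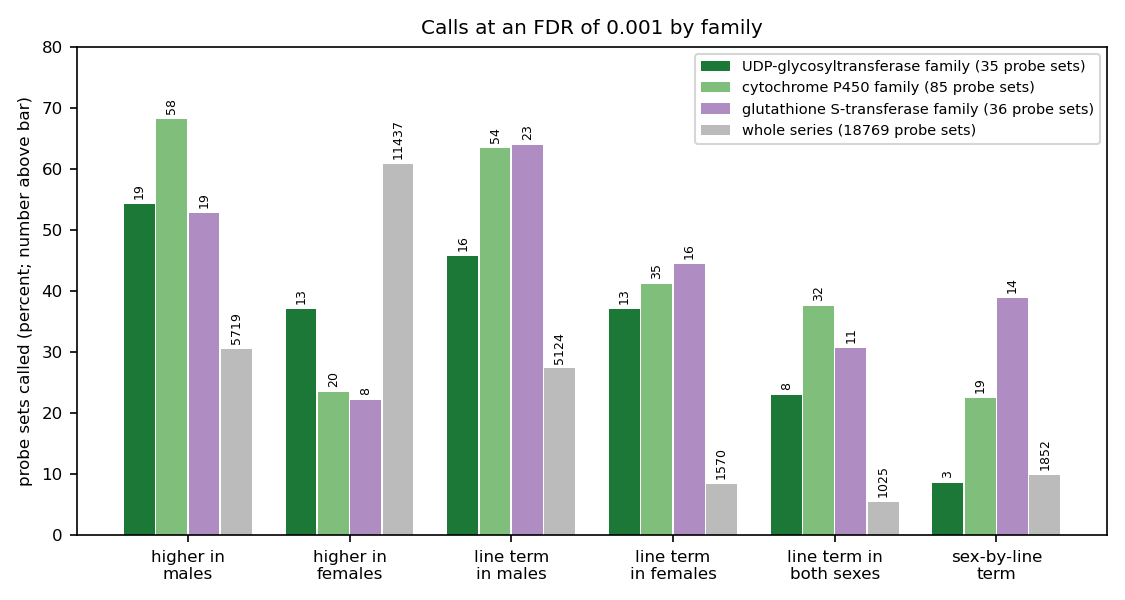
Percent of probe sets called at an adjusted p under 0.001 (y axis) for each term (x axis), in the UGT family, the P450 family, the glutathione S-transferase family and the whole series; the number called is written above each bar. For the line term in females the UGT bar stands at 37.1% and that of the whole series at 8.36%, whereas for the sex-by-line term they stand at 8.57% and 9.87%.

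The share of the variance among arrays that lay between lines had a median over the members of 39.7% in males (21.3% over all probe sets) and 36.4% in females (8.13%). In males it was highest for Ugt49B1, with 91.4% (adjusted p = 5.62e-19, restricted likelihood ratio test), whose share in females was 68.3% (adjusted p = 1.41e-07). The line means of Ugt49B1 ran from 9.20 in H09 to 10.67 in P22 among males, and over a span of 1.20, again with H09 lowest, to 9.20 in P18 among females. The 4 male arrays of H09 were at 9.32, 8.96, 9.09 and 9.45, and those of P22 at 10.73, 10.53, 10.69 and 10.71, so that the ends of the range were apart by more than 1. P22 females gave 8.96, 9.92, 8.63 and 9.05, and without the high array their mean was 8.88 and the share in females 73.2%.

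Its neighbour Ugt49C1 varied mainly through a pair of lines. Males of P22 (8.65, 8.35, 8.63 and 8.66) and of P26 (8.43, 8.31, 8.66 and 8.36) were far above the other 13 lines, whose means ran from 6.84 (H12) to 7.67 (H13). Females of the same lines also had the highest means, 7.14 in P22 and 7.06 in P26, above a low of 6.09 in P56, but P22 fell to 6.91 without replicate 2. The share between lines was 77.6% in males (adjusted p = 7.57e-11) and 49.0% in females (adjusted p = 0.000409).

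For Ugt35B1, with a share of 89.3% in males (adjusted p = 3.86e-17), a single line stood far from the rest. The 4 male arrays of H13 gave 8.81, 9.04, 8.88 and 8.84, whereas the means of the other 14 lines lay between 9.94 in H12 and 10.41 in H10. Females of H13 were also the lowest of their sex, at 6.43, 6.35, 6.51 and 6.26, followed by P13 and P07 with means of 6.59 and 6.70, and the highest female mean was 7.71 in H07. The share in females was 70.1% (adjusted p = 5.11e-08), and 75.2% without replicate 2 of P22. H13 was at the opposite end for Ugt35E2, a dim gene of the same run on 3R, with the highest mean of the 15 lines in males (5.04) and in females (4.68).

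Ugt35C1 had shares of 79.1% in males (adjusted p = 2.18e-11) and 61.9% in females (adjusted p = 3.37e-06), and its lines were spread without a gap. Means ran from 9.45 in H14 to 10.48 in P56 among males and from 7.59 in H09 to 8.65 in P22 (8.49 without replicate 2) among females. Among males every line named with H (highest H07, 10.02) lay below every line named with P (lowest P18, 10.05). Among females this order did not hold, with H07 at 8.18 and P07 at 7.88. What the prefix stands for is not in the labels, and its part in the line terms of Ugt35C1 was not tested. Ugt35A1 had shares of 78.1% (adjusted p = 4.82e-11) in males and 68.2% (adjusted p = 1.46e-07) in females. Males of P50 (9.44, 9.27, 9.35 and 9.24) and H07 (mean 9.22) were its highest and males of H13 (mean 8.09) its lowest, but among females P26 was highest at 8.44 and P56 lowest at 7.48.

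The neighbours Ugt37A2 and Ugt37A3 each had 1 line that led both sexes, and it was not the same line. For Ugt37A2, P13 had the highest mean in males (8.31) and in females (7.08), against lows of 6.64 in H09 males and 5.86 in H10 females. For Ugt37A3, P07 had the highest mean in males (6.96) and in females (6.45), against lows of 5.73 in P48 males and 5.31 in P22 females. The shares of Ugt37A2 were 62.7% in males (adjusted p = 7.62e-07) and 54.8% in females (adjusted p = 5.84e-05), and those of Ugt37A3 were 64.7% (adjusted p = 2.90e-07) and 66.5% (adjusted p = 3.60e-07). Over the 15 female line means, Ugt37A3 correlated at 0.84 with the mean of a fat body marker list of 9 probe sets (0.25 in males). This was the highest r of any member with any of the 12 gene lists in either sex, and it is given only as a description. In females the gene Lsp2 had the widest SD of line means in the fat body list (1.01). In males the largest r of Ugt37A3 in size was -0.77, with the male reproductive tract list. The part of fat body RNA in the line means of Ugt37A3 was not tested.

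**Figure D3:**
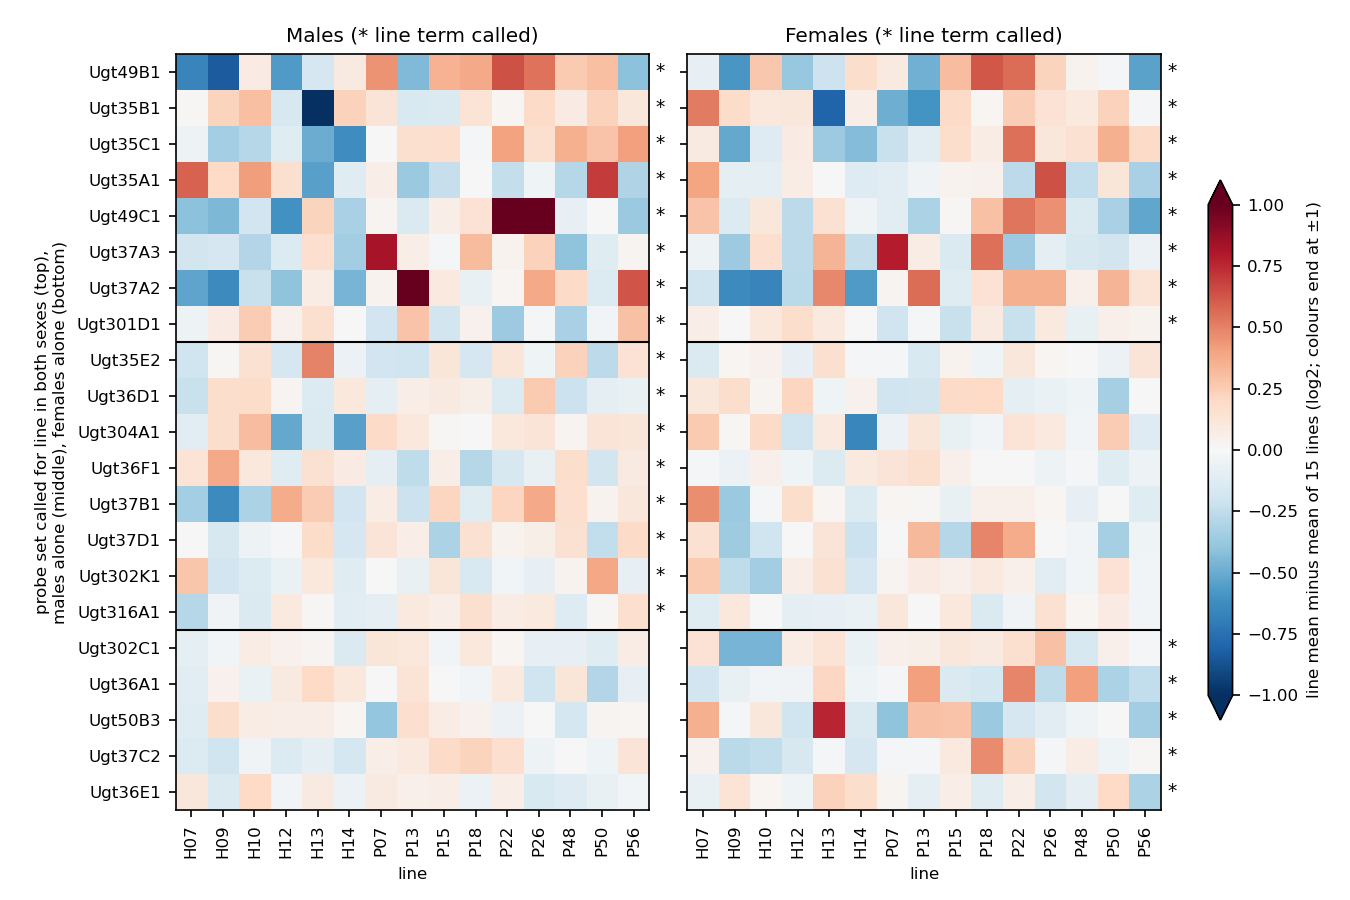
Line mean minus the mean of the 15 lines, in log2 units by colour (red above, blue below, colours ending at 1 and -1), for the 21 members with a line term in at least 1 sex (rows) in the 15 lines (columns), males on the left and females on the right; an asterisk marks a call in that sex. H13 is the darkest blue of Ugt35B1 in both panels, P13 leads Ugt37A2 and P07 leads Ugt37A3 in both, and the low values of Ugt302C1 in H09 and H10 are in females alone.

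Of the members called in males alone, Ugt35E2 had 64.0% of its variance between lines (adjusted p = 4.08e-07) and Ugt36D1 61.9% (adjusted p = 1.07e-06), and the others were Ugt304A1, Ugt36F1, Ugt37B1, Ugt37D1, Ugt302K1 and Ugt316A1, with 43.1% to 49.9%. Of those called in females alone, Ugt302C1 had the highest share of all members in that sex, 82.1% (adjusted p = 5.09e-12), against 15.1% in males (adjusted p = 0.169). Ugt36A1 had 66.4% in females (adjusted p = 3.69e-07) and 32.2% in males (adjusted p = 0.0105). Its female line means ran from 6.81 in P50 to 7.61 in P22, where the male means ran from 6.33 in P50 to 6.82 in H13. For Ugt50B3, which is dim in females, the share was 53.3% in females (adjusted p = 0.000101) and 22.8% in males (adjusted p = 0.0577). Females of H13 were at 5.40, 5.18, 5.20 and 5.35 for this gene, where the next line mean was 4.87 and the lowest, in P07, 4.12. Ugt37C2 and Ugt36E1 had 49.5% and 47.9% in females, and Ugt36E1 58.1% without replicate 2 of P22. A call in 1 sex alone does not show that the sexes differ, for which the sex-by-line term is the test.

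The sex-by-line term asks whether the difference between the sexes changes with the line, and it was called for 3 members (8.57%, against 9.87% of all probe sets and 13.5% of the brighter ones), compared with 19 of 85 P450 probe sets (22.4%) and 14 of 36 glutathione S-transferase probe sets (38.9%). The 3 were Ugt302C1 (63.0% of the variance, adjusted p = 4.63e-09), Ugt35A1 (44.9%, adjusted p = 5.35e-09) and Ugt35B1 (26.1%, adjusted p = 1.22e-06), and each belongs to the run of 10 genes on 3R.

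Ugt302C1 was flat over the male lines, with means from 9.46 in H14 to 9.72 in P07. Among females H09 (8.64, 8.86, 8.91 and 8.91) and H10 (8.91, 8.85, 8.77 and 8.78) were below all other female arrays, the next line mean being 9.13 in P48 and the highest 9.59 in P26. Male minus female was therefore 0.75 in H09 and 0.85 in H10, and in the other 13 lines it ran from -0.07 in P26 to 0.41 in P56. For Ugt35A1 the difference was 1.40 in P50 and 1.33 in H10, against 0.15 in P26, where females (8.27, 8.64, 8.34 and 8.52) overlapped with males (8.93, 8.59, 8.70 and 8.12). The last male value is replicate 4 of P26, and without it the difference in P26 was 0.30. It was 0.29 in H13, where males were at their lowest and females were close to the average of the lines. For Ugt35B1 the males were higher in every line, by 2.41 in H07 to 3.53 in P07, and H13, the low line of both sexes, had a difference of 2.50.

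**Figure D4:**
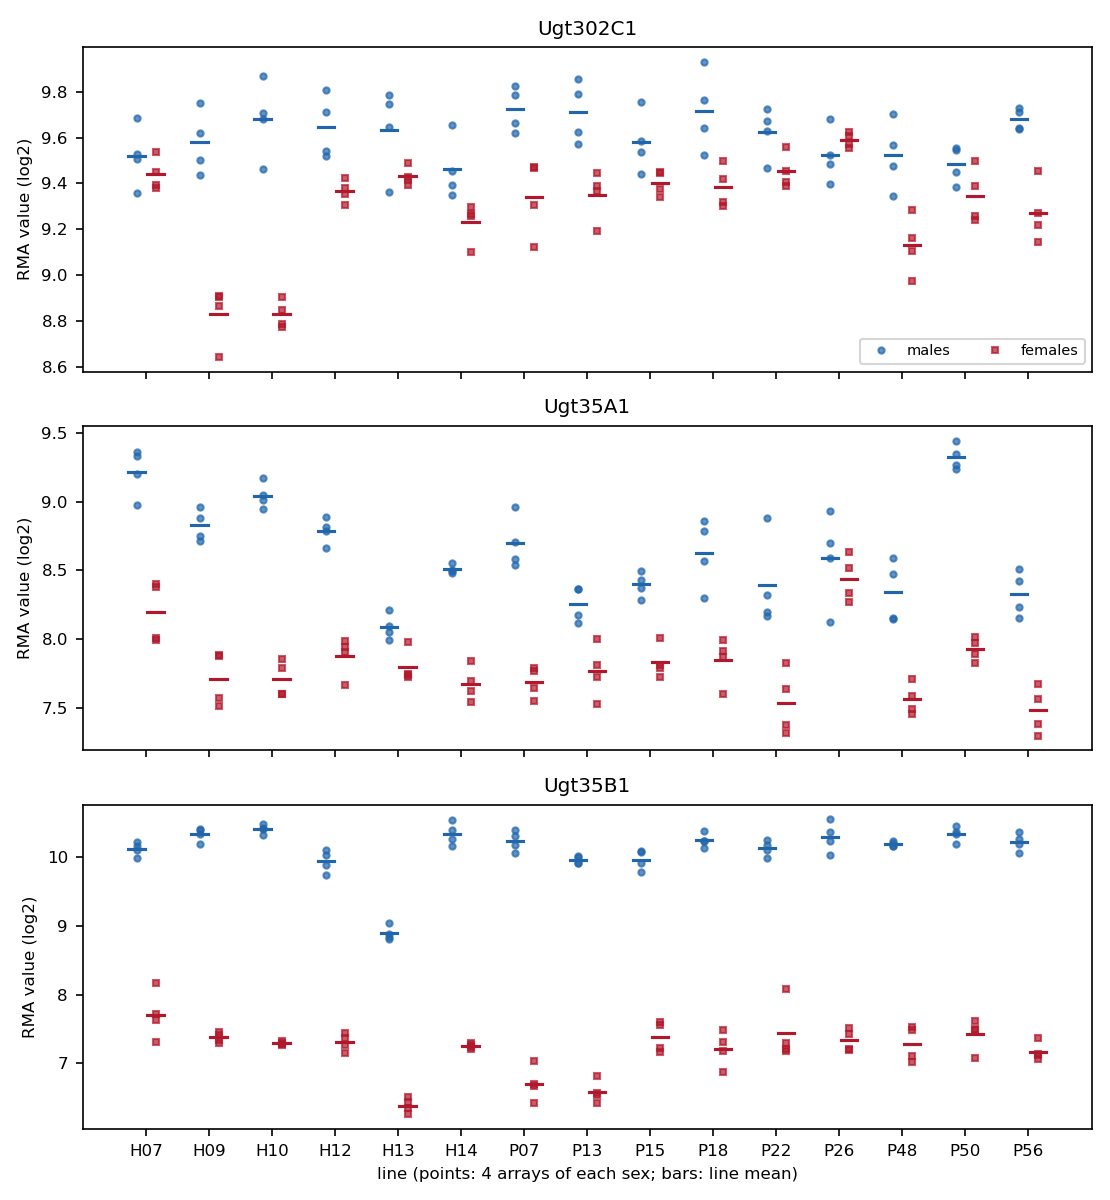
RMA values (y axis, log2 units) of the 3 members with a sex-by-line term in the 15 lines (x axis); points are the 4 arrays of males (blue circles, left) and of females (red squares, right) and bars are line means. For Ugt302C1 the females of H09 and H10 lie below all other females while the males of these lines lie with the other males, and for Ugt35A1 the sexes overlap in P26.

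The line term over both sexes, which is tested against the sex-by-line variance, was called for 0 members (0.282% of all probe sets, 0.364% of those with a mean of 5 or more in at least 1 sex, and 3 of 85 P450 probe sets) by the mixed model. The unadjusted p was under 0.05 for 17 members, an adjusted p under 0.05 was reached by 6 (17.1%, against 3.62% of all probe sets), and a limma fit with line as a fixed effect called 24 (68.6%, against 27.4%). With 15 lines this test was weak in simulated data. It recovered 10 of 200 probe sets with a line variance equal to the residual variance and no sex-by-line variance. Only these 200 of 18769 probe sets held that effect, so the reason for the 0 calls in the measured data was not tested.

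Line means of males and females come from separate arrays and separate flies, and their correlation shows whether a line with a high value in males has a high value in females. It was above 0 for 32 of the 35 members (12308 of all 18769 probe sets), with a median r of 0.43 over the members and 0.14 over all probe sets. The adjusted p, from 100000 permutations of the lines and adjusted over all probe sets, was under 0.05 for 5 members (3.55% of all probe sets). The permutations mixed lines of both name prefixes, H and P. For Ugt35C1 r was 0.85 (permutation p = 0.00013, adjusted p = 0.0129, Spearman's rho 0.89), and without the 2 lines farthest from the male median it was 0.78. For Ugt49B1 r was 0.84 (permutation p = 0.00018, adjusted p = 0.0154, rho 0.81) and 0.86 without the 2 farthest lines. The others were Ugt35E2 (r = 0.84, permutation adjusted p = 0.00799), Ugt37C2 (r = 0.76, permutation adjusted p = 0.0192) and Ugt36A1 (r = 0.76, permutation adjusted p = 0.0395). For Ugt35B1 r was 0.63 (permutation adjusted p = 0.206), but it was 0.23 without H13 and H12, the 2 lines farthest from the male median. Of these, H12 was below the mean of the lines in males (9.94 against 10.10) and above it in females (7.30 against 7.19). For Ugt35A1 r was 0.39 and for Ugt302C1 -0.06.

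**Figure D5:**
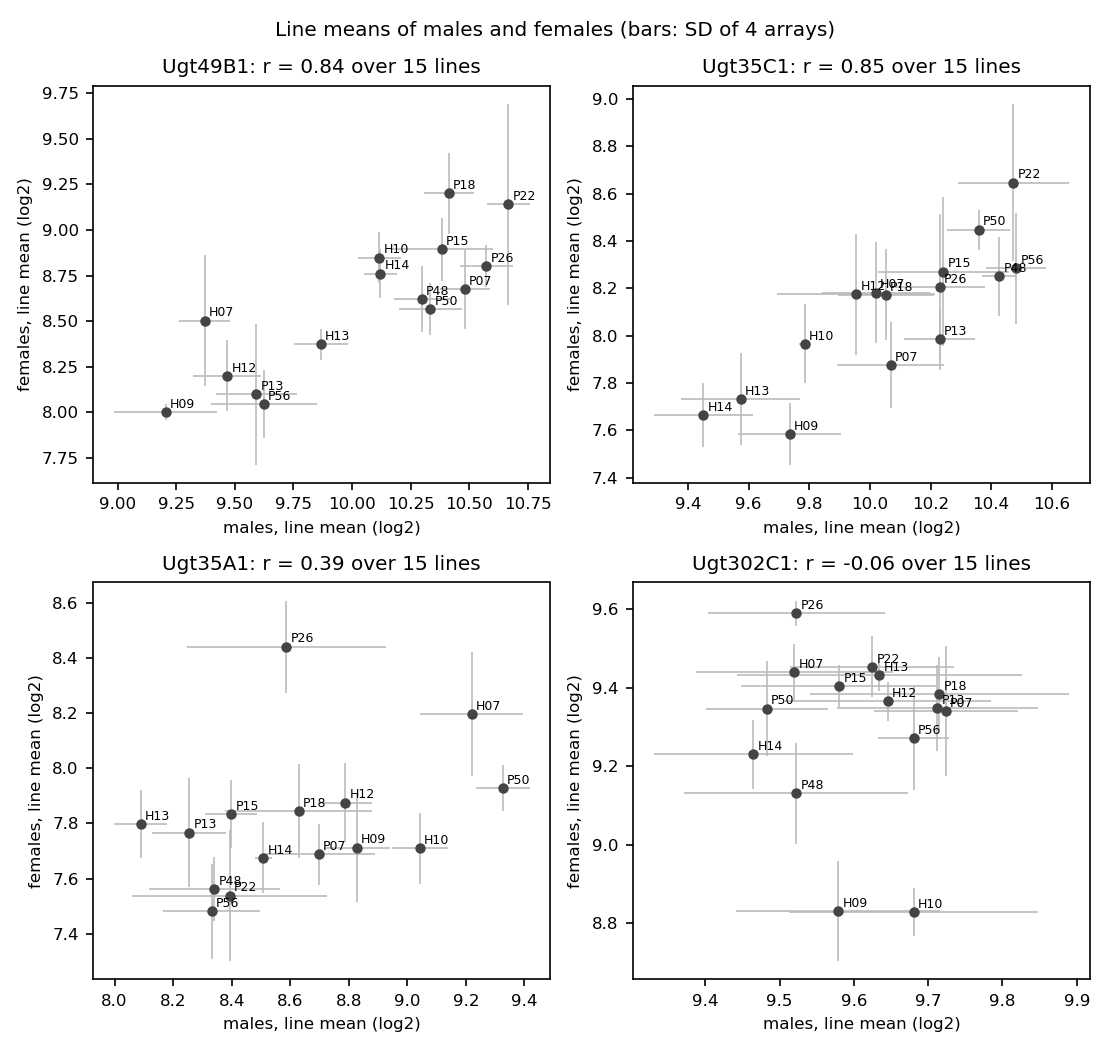
Line means of males (x axis) against those of females (y axis), both in log2 units, for 4 members; each point is a line and bars are the SD of its 4 arrays. The points of Ugt49B1 and Ugt35C1 climb together (r = 0.84 and 0.85), whereas P26 stands above the rest for Ugt35A1 (r = 0.39) and H09 and H10 stand below for Ugt302C1 (r = -0.06).

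Taken over all pairs, members seldom varied together over the lines. The median r over all 595 pairs of members was 0.02 for male line means and 0.04 for female line means, and for the 15 pairs next to each other in a run it was 0.07 and 0.32. These pairs include the 14 members with no line term called in either sex, and members with a call were not taken apart. By the mean of the r in males and the r in females, the pair most alike was Ugt49B1 and Ugt49C1, which are neighbours, with r of 0.74 over male lines and 0.71 over female lines, and of 0.67 and 0.76 among arrays within lines. Both genes were raised on replicate 2 of P22 females, and without it the female values were 0.67 over lines and 0.69 within lines. The next 4 pairs were Ugt37A2 with Ugt37E1 (0.64 in males and 0.65 in females), Ugt50B3 with Ugt305A1 (0.49 and 0.79), Ugt303A1 with Ugt37E1 (0.68 and 0.53) and Ugt37D1 with Ugt37E1 (0.66 and 0.54), of which only the last are neighbours. Ugt37E1 was dim in both sexes, and neither it nor Ugt303A1 had a line term called in either sex. Among arrays within lines, r for these pairs in turn was -0.06 and -0.02, -0.09 and -0.08, -0.16 and -0.22, and 0.22 and 0.15. All these correlations are descriptions, over 15 lines or over arrays within lines, and pairs measured on the same arrays share the error of those arrays. In males every H line of Ugt303A1 (highest H07, 6.17) lay below every P line (lowest P15, 6.19). Only P15 broke this order for Ugt37E1 and only H13 for Ugt37A2. In females it did not hold for Ugt303A1 (5.53 in H07 and 5.14 in P56). The part of the name prefix in these pairs was not tested.

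The genes that supply or surround the UGT reaction were measured in the same flies. Of 11 probe sets for the making of UDP-sugars, 7 were higher in males and 2 in females (median difference 0.64), and 11 had a line term in males and 4 in females. The list wrongly held slf, the lectin gene schlaff (10.58 in males and 8.31 in females), and without it 6 of 10 were higher in males and 2 in females (median difference 0.51), with a line term in males for 10 and in females for 4. The widest male excess of the others was that of Hex-C, a hexokinase (10.41 in males and 8.94 in females), and Galt, of galactose metabolism (10.39 and 9.05). UGP, the UDP-glucose pyrophosphorylase, averaged 5.51 ± 0.23 in males and 5.24 ± 0.20 in females (adjusted p = 0.00109, not called), and sgl, the UDP-glucose dehydrogenase that makes UDP-glucuronic acid, 9.68 ± 0.24 in males and 10.33 ± 0.09 in females (adjusted p = 1.98e-08).

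Against the same background (30.5% of all probe sets higher in males and 60.9% in females, median difference -0.27), 3 further lists were counted. Of 17 probe sets for regulators of xenobiotic response and their partners, 7 were higher in males and 10 in females (median difference -0.32). The widest were the circadian factors Clk (8.65 in males and 6.06 in females) and cyc (7.57 and 9.79), and the nuclear receptor gene Hr38 (6.66 and 4.51), whose other probe set was dim and gave 4.35 and 4.65. The oxidative stress factor cnc, the Drosophila Nrf2, was at 11.54 in males and 11.13 in females on its brighter probe set and at 3.17 and 3.07 on the other, and its inhibitor Keap1 at 7.31 and 7.65. Of 16 probe sets for ABC transporters, eye-pigment carriers among them, and organic anion transporters, 11 were higher in males and 3 in females (median difference 1.00), led by Mdr49 (9.53 in males and 7.82 in females), Mrp4 (5.66 and 4.08) and Oatp58Dc (9.62 and 8.22). Of 5 probe sets for enzymes that remove sugars, males had the higher level for 2 and females for 2. Male minus female was 3.07 for CG15117. Gal averaged 9.38 in males and 7.08 in females, and betaGlu averaged 7.60 in males and 7.90 in females.

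Markers of tissues that express UGTs also differed between whole males and whole females, as did most probe sets (30.5% higher in males and 60.9% in females). Of the Malpighian tubule list 7 of 9 probe sets were higher in males and 1 in females (median difference 1.21), of the midgut list 6 of 11 and 1 (0.53), of the fat body list 5 of 9 and 4 (0.43), and of the eye list 3 of 3 and 0 (1.69). The 1 tubule probe set higher in females was that of Capr (9.37 in males and 11.87 in females). Capr is the caprin gene, which the list wrongly held as a tubule marker. The male reproductive tract list gave 9 of 9 (10.05) and the testis list 13 of 15 higher in males and 1 in females (5.85), and in the ovary and eggshell list 13 of 13 were higher in females (-7.92). The ovary and eggshell list averaged 4.37 to 5.35 in the male lines and 12.38 to 12.50 in the female lines. The part of tissue make-up in the sex differences of the UGT genes was not tested.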

How the data were processed

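Whole-fly RNA of 120 samples (15 lines, 2 sexes, 4 samples each, described as independent replicates) was hybridised by the authors to Affymetrix Drosophila Genome 2.0 arrays. The deposited values are RMA log2 intensities, background-corrected, quantile-normalized and summarised by the authors with the affy package, whose version is not given in the sources used here, and ran from 2.33 to 15.2. Which arrays were normalized together is not given in the sources used here, and the array medians differ between the sexes, so the direction of small sex differences depends on scaling. The number of arrays limits the precision.

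From the 18952 probe sets 183 controls were left out. Probe sets were named through the platform annotation, updated by Entrez ID to RefSeq (Release 6 plus ISO1 MT), which was used for names and gene order only: 13646 had 1 gene, 402 several and 4721 none listed. Each probe set was fitted by restricted maximum likelihood with sex fixed and line and sex by line random. Sex was tested by F with 14 residual degrees of freedom, variances by the restricted likelihood ratio, and p-values were adjusted (Benjamini-Hochberg) over 18769 probe sets. The study's model also had a term for the array batch, but the batch of each array is not given in the sources used here, so it was not fitted and its part in the results was not tested. Arrays were processed in batches of 15 according to the paper, and each replicate number of a sex is also a set of 15 arrays. Whether batch coincides with sex and replicate number cannot be told here. The named members were the 6 widest sex differences in each direction with the same sign in all lines, the 6 largest shares for each line term, the 3 widest of each related list and the 5 most alike pairs by mean r of the sexes; other called members could be named, and Obp83b, Orco, UGP, sgl, cnc and Keap1 were chosen after their values were seen. The members and the 12 gene lists were chosen with earlier results of these data known.

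The closed form was checked against lme4 1.1.37 for all 35 members and tested on simulated data, in which 187 of 200 probe sets with a sex difference of 0.3 and 81 of 200 with a line variance in males equal to the residual variance were recovered. Alternatives were median and ribosomal protein centring, limma 3.58.1, an FDR of 0.05, leaving out dim probe sets, replicates or lines, and a replicate block. The work was done in R 4.3.3 and Python 3.11.15, with scipy 1.17.1, numpy 2.4.6 and pandas 2.3.3, and plots with matplotlib 3.10.9.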

Additional observations from a re-analysis of the deposited data

Results flagged for a closer look

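Among 32 groups of 4 arrays that form the ends of the line ranges given above, 4 held 1 array whose gap to the nearest other array exceeded the share of the group's range that is Dixon's critical value; chance alone gives about 1 in 20. In H14 males the gap for Ugt35C1 was 0.896 of the range (9.21 against 9.51 to 9.55), and in P22 males that for Ugt49C1 was 0.900 (8.35 against 8.63 to 8.66). In P48 males the gap for Ugt37A3 was 0.933 (5.99 against 5.63 to 5.65), and in H13 males that for Ugt36A1 was 0.950 (6.68 against 6.87 to 6.88).

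The sex difference changed with the line for Ugt302C1 (adjusted p = 4.63e-09), Ugt35A1 (adjusted p = 5.35e-09) and Ugt35B1 (adjusted p = 1.22e-06) by the restricted likelihood ratio test of the sex-by-line variance.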

How the results depend on the processing

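The count of members higher in males, 19 as deposited, was 9 with median centring and 31 with ribosomal protein centring (21.2% and 69% of all probe sets). That higher in females, 13, was 19 with median centring and 2 with ribosomal protein centring (73.6% and 22.6% of all probe sets). With dim probe sets left out it was 6 of 24 (25%, against 51.8% of probe sets of that brightness). With ribosomal protein centring Ugt37A1 (0.19) and Ugt317A1 (0.24) were called higher in males, Ugt36A1 changed sign with no call (0.18, adjusted p = 0.0043), and Ugt302E1 (-0.25, adjusted p = 0.0184) lost its call. At an FDR of 0.05 the sex-by-line term was called for 11 members (31.4%, against 25.4% of all probe sets), line in males for 25 (71.4%, against 47.4%), line in females for 20 (57.1%, against 18.6%) and line over both sexes for 6 (17.1%, against 3.62%); limma called the last for 24 and ribosomal protein centring for 1. Leaving out 1 replicate number gave 19 members higher in males, 12 to 13 higher in females, 2 to 3 with a sex-by-line term, 7 to 12 with a line term in males, 5 to 9 with one in females and 0 over both sexes, with fewer arrays in each fit. Of all probe sets, 30.2% to 30.3% were then higher in males and 60.1% to 60.3% in females. Line terms were called for 12.9% to 17% of them in males and 3.51% to 4.82% in females, and sex-by-line terms for 4.58% to 5.42%. The calls lost included Ugt37A3 in males (55.9%, adjusted p = 0.00122 without replicate 2), Ugt36A1 in females (58.7%, adjusted p = 0.00175 without replicate 1) and the sex-by-line term of Ugt35B1 (22.3% and 21.9% without replicates 3 and 4). Leaving out 1 line gave 19 to 20 and 13 for sex, 3 to 5 for sex by line (5 without P13 or P22), 13 to 17 in males and 11 to 14 in females. Over all probe sets the shares were 30.3% to 30.5% and 60.4% to 60.8% for sex and 7.88% to 10.2% for sex by line. For line they were 22.5% to 26.5% in males and 7.11% to 8.92% in females. Leaving out replicate 2 of P22 females, chosen after seeing the data, gave 19 and 13 for sex and 15 for line in females, with all 13 earlier calls kept. Leaving out replicate 4 of P26 males, also chosen after seeing the data, gave 19 and 13 for sex and 17 for line in males, with all 16 earlier calls kept, and lme4 without it gave an unadjusted p of 2.7e-10 for the sex-by-line term of Ugt35A1. Same-numbered samples did not all deviate together over all probe sets (median r 0.07, -0.49 to 0.55), so the numbers were not taken as pairs, although within the family replicate 4 was low in most groups and replicate 3 was above its line mean in 14 of 15 male groups. With a replicate block the counts were 19, 13, 4 for sex by line, 18 in males, 15 in females and 0 over both. The shares of all probe sets were, in this order, 30.5%, 60.9%, 11.9%, 32.8%, 9.43% and 0.314%. A block of the replicate number within each sex, chosen after seeing the data, gave 4 for sex by line and 0 over both.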
